A study of Mus musculus with 8 samples.

Results

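Heat shock genes code for chaperones, the proteins that help other proteins fold and that keep damaged ones from clumping. Their levels were followed here in leukocytes of the mouse brain, pia and dura after stroke. The 10 genes were taken as a given list, namely Hspa1a, Hspa1b, Hsph1, Dnajb1, Hsp90aa1, Hsp90ab1, Hspa8, Hspe1, Hspd1 and Bag3. All 10 were among the 30406 genes that every library counted. The question was in which cell clusters and libraries these genes were high, how the clusters that the authors named stress_Myeloid and stress_Micro stood to the others, and how far the 2 libraries of 24-h brain differed from each other.

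Leukocytes outside the blood vessels (CD45+ cells not stained by a CD45 antibody injected into the circulation) had been sorted from adult male C57BL/6 mice, written C57BL/J in the sample titles. Stroke was induced by transient middle cerebral artery occlusion (MCAO), in which a filament blocks the artery for a limited time. Controls were described as naive in the methods and as sham-operated in a legend, and are called control. Brain, pia and dura were sampled as controls and again 24 h after MCAO, brain also after 72 h. All of these had a single library apart from 24-h brain, which had 2, called replicates 1 and 2. Repeat experiments were said to have been pooled within each compartment, but the number of mice in a library was not given, so spread between libraries may be technical in part. A control is titled as brain but carries pia in its tissue and source labels, and was used as control pia. Brain tissue was digested for a shorter time than pia and dura and was also run through a Percoll gradient, so that compartment and preparation cannot be told apart.

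In resting cells the constitutive chaperones Hspa8 and Hsp90ab1 do most of the folding work, and the inducible Hsp70 proteins of Hspa1a and Hspa1b are made at low levels. Heat and other insults to proteins release the transcription factor Hsf1, which binds repeats of the bases GAA in either direction and switches on Hspa1a, Hspa1b, Dnajb1, Hsph1 and others. Immune cells taken from solid tissue by warm enzyme digestion are known to express such genes, together with immediate early genes such as Fos and Jun.

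Each library held between 6591898 and 20754181 UMIs (unique molecular identifiers, each standing for 1 captured transcript), and 32457 of 36854 barcodes carried 1 of 21 cluster names of the authors, 2810 to 6049 per library. The shallowest was 24-h brain replicate 2, with a median of 1071.5 UMIs per annotated cell, and 72-h brain the deepest, with 2501. The libraries fell into 2 sets by how they had been counted, in that 24-h brain replicate 2 and 72-h brain listed 31053 genes, and the other 6 libraries listed 32285. The 6 libraries of the longer list shared 10 to 32 cell barcodes in each pair, the 2 of the shorter list shared 8, and pairs across the sets shared 0 to 2. The kit versions named in the supplement (version 3 for 72-h brain and 24-h dura, version 2 for the others) do not follow this split. Both libraries of the shorter list are from brain after stroke, so that the set and the biology of these samples cannot be told apart, and tests of the 10 genes that rest on 24-h brain replicate 2 are also given without it.

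Hspa1a and Hspa1b are printed here because their starts are nearly identical while their counts split the libraries. Both code for the inducible Hsp70 protein. They lie on the minus strand of chromosome 17, Hspa1a at chr17:34969190-34972156 and Hspa1b at chr17:34956436-34959238 (GRCm38), each in a single exon, with 9951 bases between them. The 250 bases before each start (RefSeq, GRCm38.p6, minus strand, chr17:34972157-34972406 and chr17:34959239-34959488) differed at 3 positions, counted from 1 at the 5′ end of the Hspa1a sequence, as C44T, T47C and T249G with the Hspa1b base last. Capitals mark the match to GAANNTTC, a pair of GAA repeats facing each other, which began 104 bases before the start in both.
Hspa1a: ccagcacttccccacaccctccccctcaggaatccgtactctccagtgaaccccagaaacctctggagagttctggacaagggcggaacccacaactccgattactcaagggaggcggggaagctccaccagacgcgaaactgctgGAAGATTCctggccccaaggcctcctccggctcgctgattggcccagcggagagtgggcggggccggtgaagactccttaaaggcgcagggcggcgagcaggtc
Hspa1b: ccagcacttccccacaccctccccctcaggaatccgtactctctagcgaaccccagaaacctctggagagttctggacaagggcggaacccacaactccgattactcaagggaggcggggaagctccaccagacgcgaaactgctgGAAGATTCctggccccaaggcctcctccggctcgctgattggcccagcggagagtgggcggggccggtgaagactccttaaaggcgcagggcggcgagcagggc

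Hspe1 and Hspd1, the mitochondrial chaperonin lid and barrel, lie head to head on chromosome 1 (chr1:55088132-55091307, plus strand, and chr1:55077835-55088243, minus strand, GRCm38) and overlap by 112 bases. They shared a run of 4 GAA repeats in alternating direction, which is shown because it was the longest such run before any of the 7 genes searched. The stretch below is chr1:55088054-55088081 (GRCm38.p6, plus strand), inside an annotated exon of Hspd1, with the repeats in capitals.
Hspe1: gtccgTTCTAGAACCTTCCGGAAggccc

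Both strands of the 250 bases before each start were searched. The RefSeq table held 10 promoters of 7 member genes. GAANNTTC or TTCNNGAA was found in 6 of the 10 (those of Hspa1a, Hspa1b and Hspe1, both of Hsph1 and 1 of the pair of Hspd1, none of Bag3 or Dnajb1) and in 12.8% of all 32851 promoters of the table. The longer forms GAANNTTCNNGAA and TTCNNGAANNTTC, which contain the shorter ones, were found in 2 of the 10, those of Hspe1 and of the same start of Hspd1, and in 0.466% of all promoters. A match describes these letters and not a bound site. The other members lie on chromosome 5 (Hsph1), 8 (Dnajb1), 12 (Hsp90aa1), 17 (Hsp90ab1), 9 (Hspa8) and 7 (Bag3).

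Some members have close copies in the transcriptome, which matters for counts from transcript 3′ ends. Of all stretches of 100 bases in the transcript, 48.6% of those of Hspa1a and 49.9% of those of Hspa1b occurred in another gene, mostly in each other, but none did within the last 500 bases. For Hspa8 the share was 62.8%, and 79.3% within the last 500 bases, with Gm15459 as the gene that shared most. In the last 500 bases of Hspe1 it was 34.4%, and in those of Hsph1, Dnajb1, Hsp90aa1, Hsp90ab1, Hspd1 and Bag3 it was 0. Counts of Hspa8 and Hspe1 are therefore uncertain where reads could be assigned to a copy.

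Summed over all annotated cells, the members did not follow a single order of libraries. Such sums mix cell types, so that more cells of a type and more RNA per cell cannot be told apart. Levels are given as CPM, counts per 1e+06 UMIs of the summed cells. Hspa1a stood at 154 CPM in control brain, 176 and 219.6 in 24-h brain (replicates 1 and 2), 48.8 in 72-h brain, 855 in control pia, 837 in 24-h pia, 124 in control dura and 168 in 24-h dura. The 2 pia libraries were thus the highest and 72-h brain the lowest, while control and 24 h lay close together within pia. Hspa1b, its near twin, stood in the same order of libraries at 1.01, 2.18, 132, 17.9, 19.3, 17.5, 4.37 and 5.57 CPM. Here 24-h brain replicate 2 was the highest, and control brain, with 7 UMIs in all, the lowest.

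Dnajb1, a J-domain protein that hands clients to Hsp70, stood at 1035 CPM in control brain, 802 and 103 in 24-h brain (replicates 1 and 2), 74.2 in 72-h brain, 628 and 577 in control pia and 24-h pia, and 229 and 339 in control dura and 24-h dura. The 2 libraries of the shorter gene list were below the other 6. Hspa8, the constitutive Hsp70, showed the same split, at 1399 and 1178 CPM in 24-h brain replicate 2 and 72-h brain and between 2859 and 5331 in the other 6. Hsp90ab1, the constitutive Hsp90, was split the other way, at 1682 and 1533 in these 2 libraries and between 563 and 924 in the others. For the remaining members the sets overlapped. Hsp90aa1, the inducible Hsp90, ranged from 272 CPM in control brain to 694 in 24-h brain replicate 2. Hsph1, an Hsp110 that recharges Hsp70, ranged from 21.7 in 24-h brain replicate 1 to 69.1 in 24-h pia. Bag3, which links Hsp70 to autophagy, ranged from 10.8 in control dura to 41.1 in 24-h pia. Hspe1 and Hspd1 lay within 131 to 251 and 99.5 to 192 CPM.

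**Figure D1:**
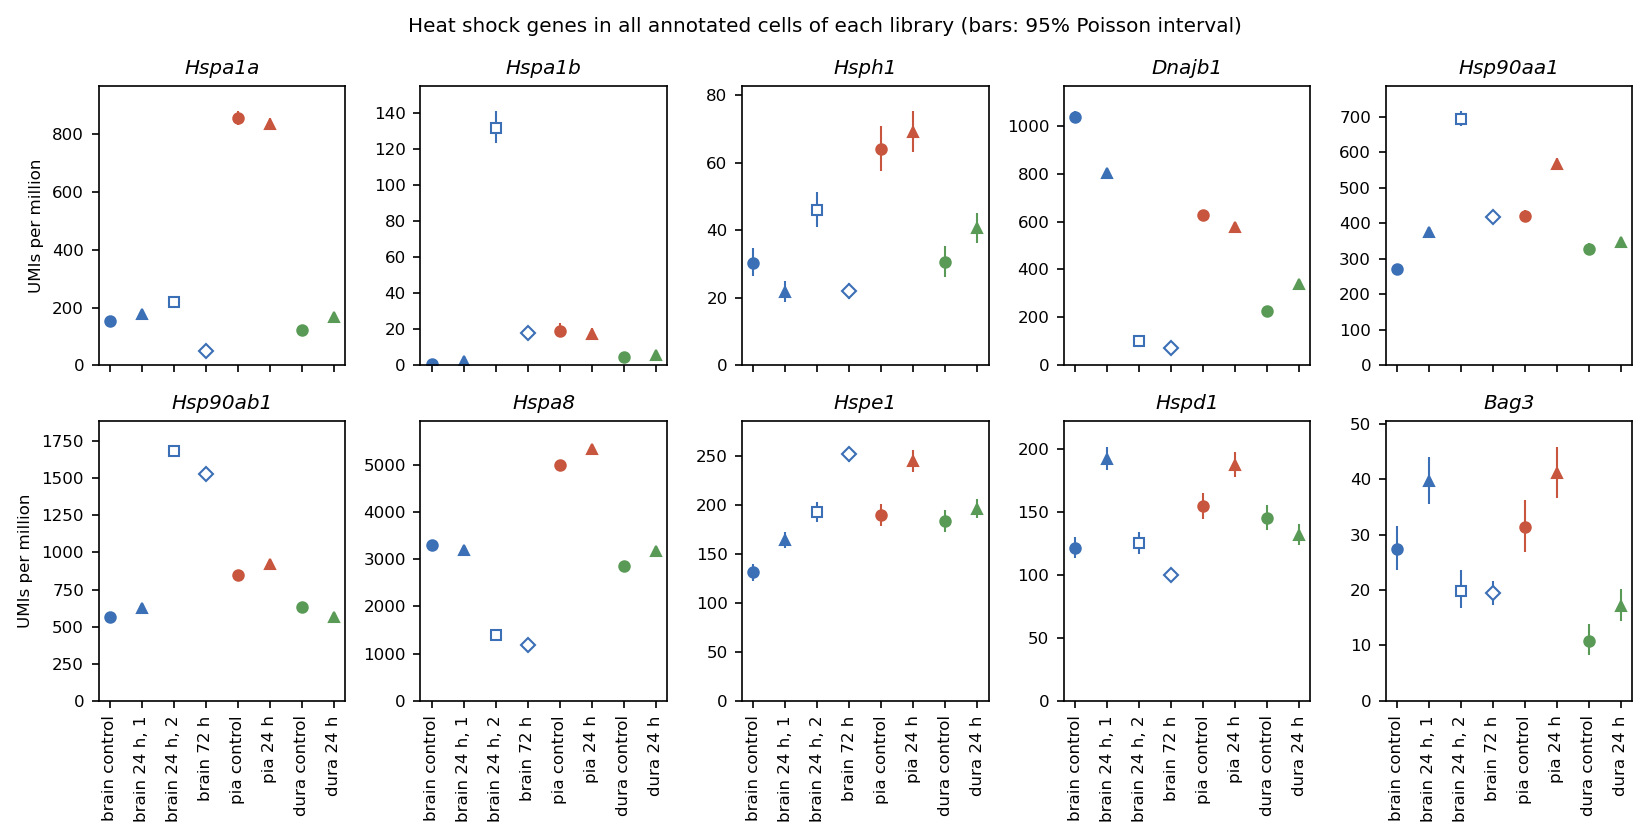
Level of each of the 10 genes in all annotated cells of a library (CPM, axes from 0), with bars for the exact 95% Poisson interval of the count; open symbols are the 2 libraries of the shorter gene list. Dnajb1 and Hspa8 are lowest and Hsp90ab1 highest in the open symbols, and Hspa1a is highest in the 2 pia libraries.

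The libraries of 24-h brain carry the same label and differed widely. Of 10413 genes with at least 50 UMIs in both together, 49.3% differed by at least 2-fold between replicates 2 and 1, 32.5% higher and 16.8% lower in replicate 2. Of the 10 members 5 did so. Hspa1b was higher by 5.88 on the log2 scale (19 UMIs in replicate 1 and 887 in replicate 2), Hsp90ab1 by 1.43 and Hsph1 by 1.09, and Dnajb1 was lower, at -2.96, as was Hspa8, at -1.19. The share of 5 in 10 is close to that of all genes. The other 5 members had log2 ratios of 0.88 (Hsp90aa1), 0.32 (Hspa1a), 0.23 (Hspe1), -0.62 (Hspd1) and -0.99 (Bag3). This is a comparison of 2 libraries and not of conditions, and no test was run on it.

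The members also differed within single clusters. In each of the 10 clusters with at least 30 cells in both replicates, Dnajb1 was lower in replicate 2, with log2 ratios from -3.28 (Micro_1) to -1.05 (Macro_2), and the 95% counting interval of the ratio lay below 0 in all 10. Hsp90ab1 was higher in all 10, by 1.14 (CAM_1) to 2.51 (Granulo_1), with every interval above 0. Hsp90aa1 was higher in all 10, with 9 intervals above 0, and Hspa8 was lower with its interval below 0 in 8. Hspa1b had its interval above 0 in 7 of 10 clusters, but replicate 1 held 0 to 3 UMIs of it in each cluster, so that the size of these ratios is not measured. In Micro_2 it had 1 UMI in replicate 1 and 294 in replicate 2. Hspa1a had its interval above 0 in 5 clusters. In Granulo_2 replicate 1 held 0 UMIs of both genes and replicate 2 held 3 of Hspa1a and 5 of Hspa1b. Within clusters, between 14.4% and 29.2% of the genes were at least 2-fold higher and between 14.6% and 24.6% at least 2-fold lower in replicate 2. How many of all genes kept their sign, or had intervals away from 0, in as many clusters was not counted. The counts of clusters therefore do not set the members apart from other genes.

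**Figure D2:**
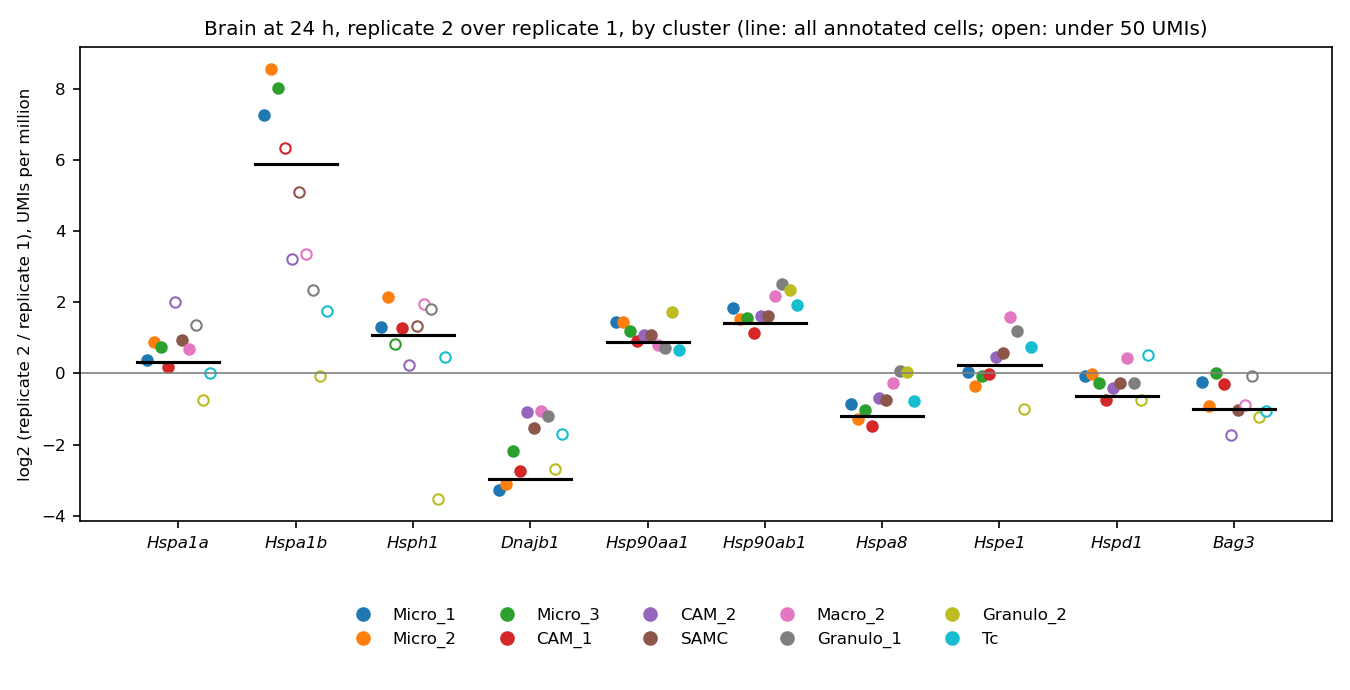
Log2 ratio of 24-h brain replicate 2 over replicate 1 for each gene, with 1 point per cluster that had at least 30 cells in both and a line for all annotated cells; open points rest on fewer than 50 UMIs. All points of Dnajb1 lie below 0 and all points of Hsp90aa1 and Hsp90ab1 above 0. The points of Hspa1b rest on 0 to 3 UMIs in replicate 1, and the signs of Hspa1a, Hspa1b and Bag3 in Granulo_2 on the 0.5 counts added to 0. The lowest point of all, Hsph1 in Granulo_2 at -3.54, rests on 0 UMIs in both replicates and measures no difference.

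Pairs of brain libraries with the same gene list were closer. Replicate 1 of 24 h against control brain had 9.89% of genes past 2-fold and none of the 9 members with enough UMIs, with log2 ratios from -0.49 (Hsph1) to 0.67 (Hspd1). The 72-h brain library against 24-h replicate 2 had 16.2% of genes past 2-fold and 3 of the 10 members, Hspa1a at -2.17, Hspa1b at -2.88 and Hsph1 at -1.07. In the 4 pairs of unequal gene list, 48.0% to 50.7% of genes and 5 or 6 members were past 2-fold. Of all UMIs of the Hspa1a and Hspa1b pair, Hspa1b made up 37.5% (exact 95% interval 35.5 to 39.5) in 24-h brain replicate 2 and 26.9% (24.3 to 29.7) in 72-h brain. In the 6 libraries of the longer list this share was 0.649% in control brain, 1.22% in 24-h brain replicate 1, 2.21% in control pia, 2.05% in 24-h pia, 3.41% in control dura and 3.22% in 24-h dura. The 2 groups of libraries did not overlap. The part that gene annotation, chemistry or handling had in this was not tested.

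The set of the library was compared in an edgeR fit that was added after the data had been seen, on UMIs summed per library within a cell class, with compartment and gene list as terms over 8 libraries. In the macrophage clusters (CAM_1, CAM_2, Macro_1 and Macro_2 together), 33.9% of 10122 genes were called, 19.3% higher and 14.6% lower, which means an adjusted p under 0.05 and at least 2-fold, and so were 4 of 10 members. Hspa1b was higher with the shorter list by 3.998 on the log2 scale (SE 0.86, edgeR adjusted p = 0.0076) and Hsp90ab1 by 1.36 (SE 0.34, adjusted p = 0.012). Dnajb1 stood at -3.27 (SE 0.46, adjusted p = 0.0011) and Hspa8 at -1.31 (SE 0.32, adjusted p = 0.011), both lower. Microglial markers of these clusters summed to 25077 and 11086 CPM in control brain and 24-h brain replicate 1. They summed to 2721 and 1520 in 24-h brain replicate 2 and 72-h brain, and the part of cell kind was not tested. In Macro_2 of these brain libraries, in this order, Dnajb1 stood at 226, 177, 86.0 and 60.1 CPM. Hspa8 stood at 2600, 2078, 1739 and 1412, and Hsp90ab1 at 598, 467, 2136 and 1942. In T cells (cluster Tc) 17% of 5310 genes were called, 11.1% higher and 5.95% lower, and 3 of 9 members tested, all higher with the shorter list, with log2 fold changes of 1.14 for Hsp90aa1, 1.83 for Hsp90ab1 and 1.53 for Hspe1. Dnajb1 and Hspa8 had log2 values of -1.03 (SE 0.39, edgeR adjusted p = 0.054) and -0.78 (SE 0.20, edgeR adjusted p = 0.0037, under 2-fold) there. Without 24-h brain replicate 2 the shorter list is 1 library, 72-h brain, which is also the only one of its time and is assumed to vary like the others. That fit called 26.2% of 10696 genes in macrophage clusters and 11.5% of 6252 in T cells, among them the same 7 member calls and Hspa1a in the macrophage clusters, at -1.63 (SE 0.38, edgeR adjusted p = 0.018). With scaling by library size alone, Hsp90aa1 in T cells fell to 0.84, under 2-fold, and Dnajb1 and Hspa8 were called lower there, at -1.34 and -1.09.

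Other genes of protein quality control also differed with the gene list, in the fit over 8 libraries alone. Ubb, which supplies the ubiquitin tag for degradation, was lower with the shorter list in macrophage clusters, at a log2 value of -2.83, and in T cells, at -2.44. Of 13 genes of endoplasmic reticulum chaperones and stress, 8 were lower in the macrophage clusters, where 14.6% of all genes were, among them Hspa5, the Hsp70 of that compartment (-1.90), and Herpud1 (-2.63), and Calr was higher (1.12). In T cells 2 of 12 were lower and 1 was higher. In the macrophage clusters 3 of 9 Hsp90 co-chaperones were lower and 1 was higher, 6 of 14 immediate early genes were lower, 1 of 7 TRiC subunits was higher, and none of 5 regulators was called. In T cells 4 of 14 immediate early genes were higher and 2 were lower, where 11.1% and 5.95% of all genes were. Of 9 Hsp90 co-chaperones 1 was higher and 1 was lower there, and no TRiC subunit or regulator was called. These were called by edgeR in the same fit.

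Across clusters, stress_Myeloid led. The plot of levels by cluster shows the CPM of 4 members in all clusters with at least 30 cells in a library. Hspa1a reached 6206 CPM in stress_Myeloid of 24-h brain replicate 2 (45 cells), 9128 in that of control pia (30 cells) and 10302 in that of 24-h pia (35 cells), the 3 libraries with at least 30 such cells. In each of these libraries it was the highest cluster, although Micro_2 of 24-h pia, at 6736, exceeded stress_Myeloid of the brain library. By the median over libraries, Micro_2 followed with 429 (lowest 171, 6 libraries) and Macro_2 with 306 (75.7 to 1156, 8 libraries), and their ranges overlapped. The lowest medians were those of ILC2 (27.9), NK cells (18.8) and Granulo_2 (5.96), and neighbours in this order overlapped in range, with the exception of mast cells and Macro_1.

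**Figure D3:**
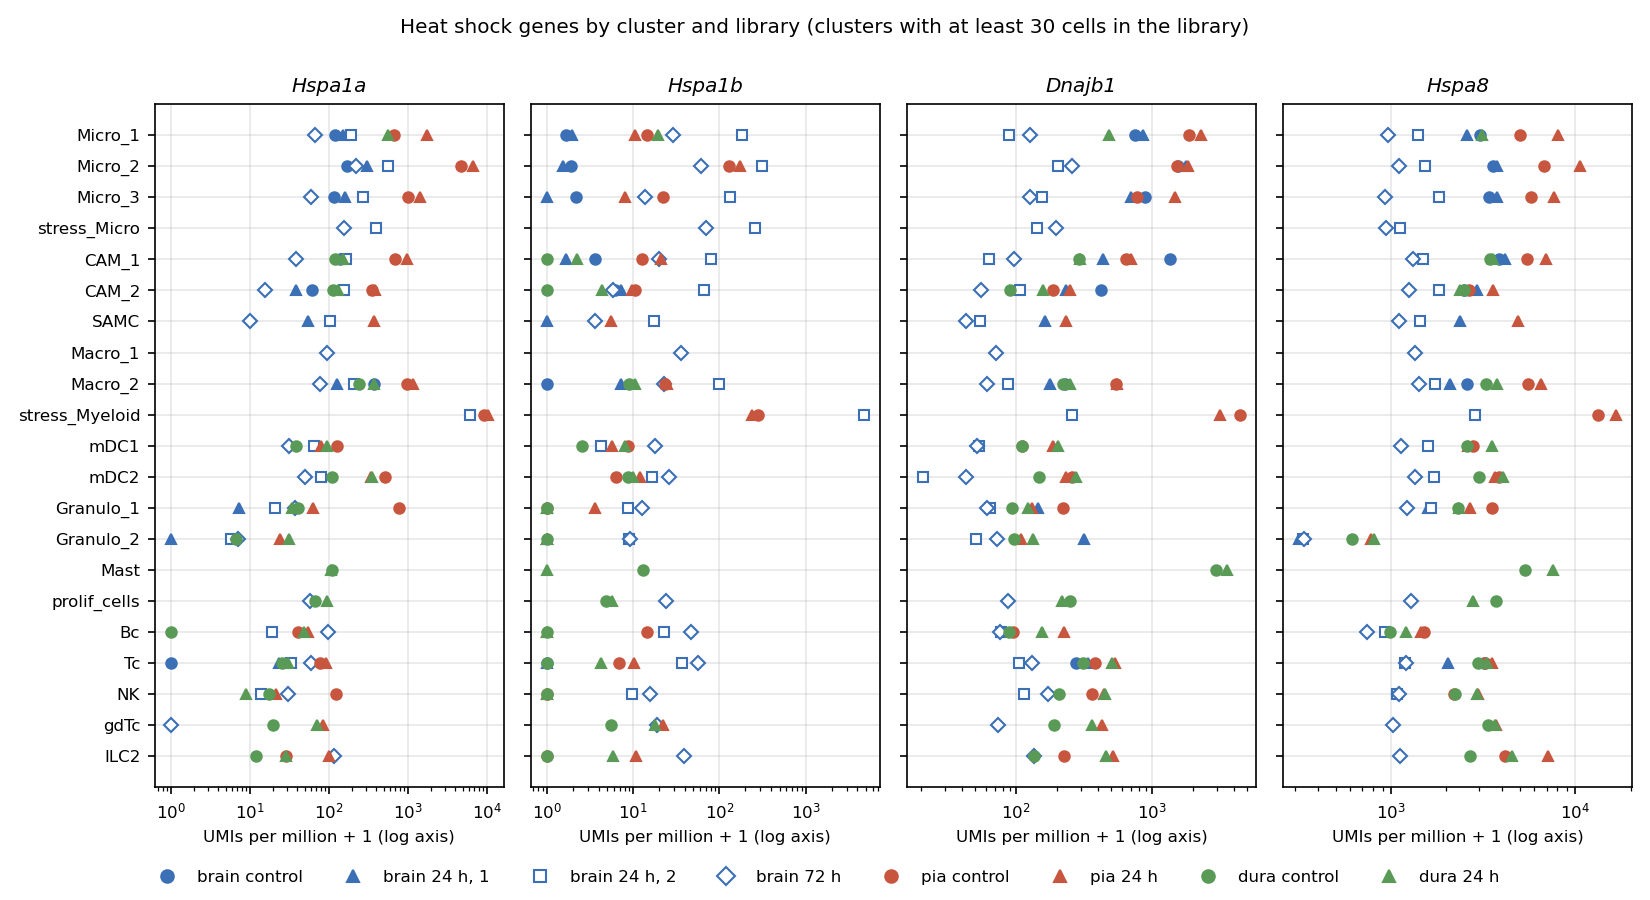
CPM plus 1 (log axis) of Hspa1a, Hspa1b, Dnajb1 and Hspa8 by cluster, with 1 point per library with at least 30 cells; colour gives the compartment, and open symbols the libraries of the shorter gene list. Points of stress_Myeloid lie rightmost within each library for Hspa1a, between 6206 and 10302, with Micro_2 of 24-h pia also in this span at 6736. Dnajb1 is highest in mast cells and in stress_Myeloid of pia, and open symbols of Dnajb1 and Hspa8 lie left of the filled ones in most clusters.

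All 10 members together made up 21527, 32849 and 36835 CPM in stress_Myeloid of these 3 libraries, and its range did not overlap that of any other cluster but Micro_2, which reached 23825 in 24-h pia. Cells of stress_Myeloid made up 1.30%, 1.07% and 0.892% of the annotated cells of 24-h brain replicate 2, control pia and 24-h pia and held 19.5%, 10.6% and 9.40% of the Hspa1a UMIs. Against all cells outside both stress clusters, 9 of 10 members were at least 2-fold higher in all 3 libraries, all but Hspe1, and 1.71% of 6617 genes were. These counts are a description, since the authors formed the clusters from the same transcriptomes. The log2 ratios ranged over the 3 libraries from 3.56 to 5.25 for Hspa1a, from 3.97 to 5.73 for Hspa1b, from 3.08 to 3.58 for Hsph1, from 1.96 to 3.21 for Bag3 and from 1.44 to 2.91 for Dnajb1. They were lower for Hsp90aa1 (1.57 to 1.92), Hsp90ab1 (1.13 to 1.76), Hspa8 (1.03 to 1.67), Hspd1 (1.11 to 1.22) and Hspe1 (0.90 to 1.46). Hspa1a, Hspa1b and Hsph1 had the highest ratios of the 10 in each of the 3 libraries.

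Set against the macrophage clusters alone, 5 of 9 members with enough UMIs were at least 2-fold higher in all 3 libraries (Hspa1a, Hspa1b, Hsph1, Dnajb1 and Hsp90aa1), as were 1.27% of 2829 genes. By markers given below, stress_Myeloid of 24-h brain replicate 2 was nearer to microglia. There these 5 stood at 396, 235, 54.0, 163 and 1058 CPM in Micro_1, Micro_2 and Micro_3 together. In stress_Myeloid they stood at 6206, 4741, 474, 259 and 2500. Micro_2 of control pia and 24-h pia, with macrophage markers, had Hspa1a at 4694 and 6736, against 9128 and 10302 in stress_Myeloid. Against all cells outside both stress clusters again, and with the libraries of 10 cells or more, which adds control brain (19 cells), 24-h brain replicate 1 (25 cells) and 72-h brain (11 cells), Hspa1a was still higher in every one of the 6, by 3.56 to 7.17 on the log2 scale, and so was Dnajb1, by 1.44 to 2.91. These were the 2 members that met the requirement of 2-fold and 50 UMIs in every library. Of Hsph1 the 19 cells of control brain held 0 UMIs, and Hspe1 ranged from 0.36 to 1.46.

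The name stress_Myeloid joined cells of different kind. In 24-h brain replicate 2 its cells carried microglial markers, with Cx3cr1 at 2758 and Tmem119 at 711 CPM, and the 5 microglial markers summed to 8576 against 2155 for the 5 macrophage markers. In control pia and 24-h pia its cells carried macrophage markers, with Apoe at 14871 and 12182 and Lyz2 at 6230 and 7808, and summed to 21552 and 20365 for macrophage against 1631 and 939.7 for microglial markers. Markers of granulocytes, T, B and NK cells were at or near 0, with S100a8 in 24-h pia highest at 68.3 CPM. The share of mitochondrial UMIs in these cells was 3.2%, 1.2% and 1.1%. Hspa1b stood at 4741, 278 and 239 CPM and Dnajb1 at 259, 4442 and 3178 in 24-h brain replicate 2, control pia and 24-h pia. Hspa8 stood at 2866, 13292 and 16692. The directions were those of the split between library sets, but set, compartment and cell kind cannot be told apart in these libraries.

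Nearly every stress_Myeloid cell held Hspa1a transcripts. After every cell was thinned to 1000 UMIs, with shallower cells left out, 13 of 13 cells (100%, exact 95% interval 75.3 to 100) of 24-h brain replicate 2 had a UMI of Hspa1a, 26 of 28 (92.9%, 76.5 to 99.1) of control pia and 33 of 33 (100%, 89.4 to 100) of 24-h pia. In the lymphoid clusters of the same libraries the share was 1.87%, 4.52% and 4.80%, given for comparison. Free RNA in the droplets was not measured, and lymphoid cells may express these genes themselves. Without thinning, the share in stress_Myeloid was 100%, 93.3% and 100%, and in the lymphoid clusters 3.20%, 5.34% and 5.47%, at median depths of 790 to 1815.5 and of 1059 to 1877 UMIs per cell. In all annotated cells of these libraries it was 17.1%, 35.2% and 32.1% without thinning. Dnajb1 gave 15.4% (2 of 13), 78.6% (22 of 28) and 84.8% (28 of 33) of thinned stress_Myeloid cells, against 9.07%, 23.1% and 33.0% of lymphoid cells. In 24-h brain replicate 2 the interval of this share, 1.92% to 45.4%, takes in the lymphoid value. These intervals cover counting error only.

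**Figure D4:**
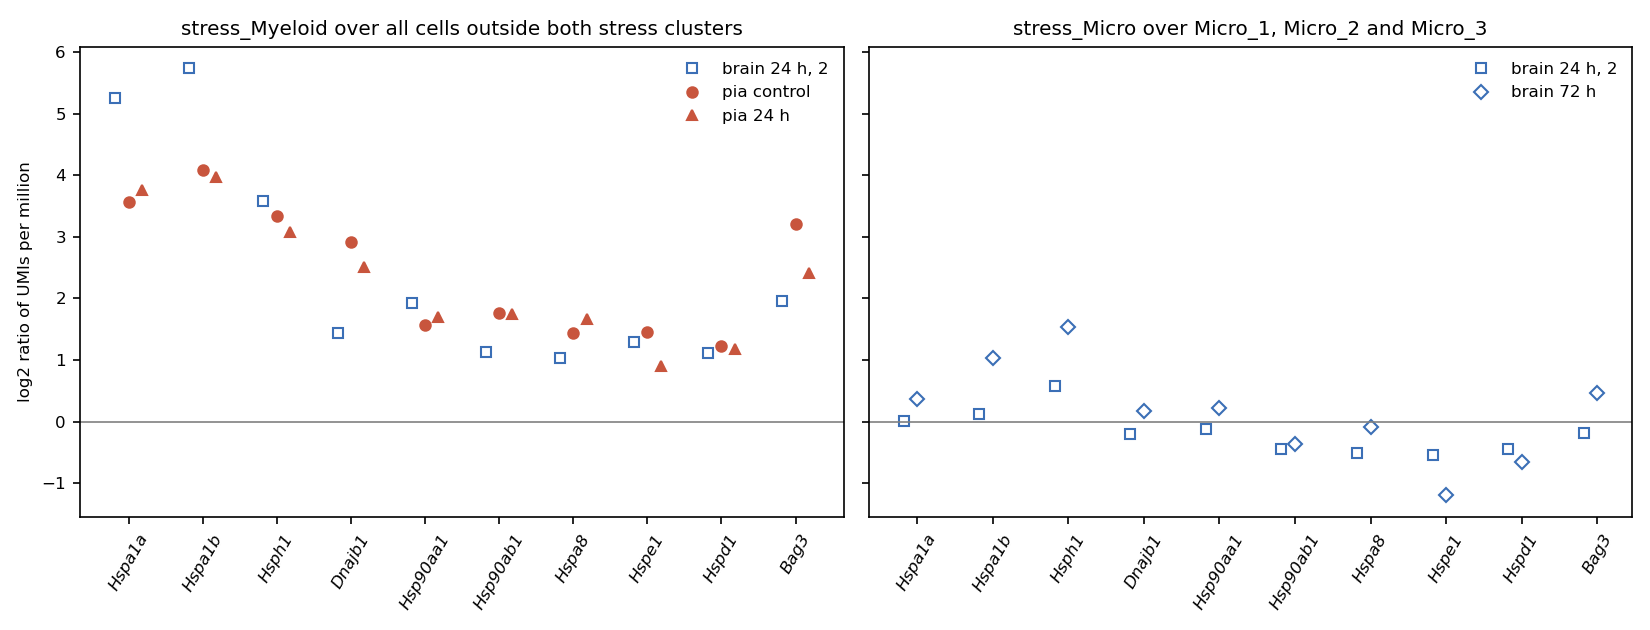
Log2 ratio of CPM for each gene in stress_Myeloid over all cells outside both stress clusters (left) and in stress_Micro over the other microglial clusters (right), 1 point per library with at least 30 cells of the cluster. Points on the left lie between 0.90 and 5.73, and on the right between -1.20 and 1.54.

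Other gene lists gave a narrower picture of stress_Myeloid. Of 71 further genes in 10 lists, those at least 2-fold higher in all 3 libraries included Dnaja1, another J-domain protein (2.05 to 2.24 on the log2 scale, 1 of 6 tested in its list) and 9 of 14 immediate early genes, which code for transcription factors and signal regulators that rise within minutes of a stimulus. The latter were Fos, Fosb, Jun, Egr1, Ier2, Dusp1, Btg2, Klf2 and Klf6, with log2 ratios between 1.01 and 2.53. None did so of 4 regulators such as Hsf1, 4 other Hsp70 and Hsp110 genes, 9 Hsp90 co-chaperones, 7 subunits of the TRiC chaperonin, 4 mitochondrial chaperones and proteases and 12 genes of endoplasmic reticulum chaperones and stress, and no small heat shock gene reached 50 UMIs. The background for all these counts is the 1.71% above.

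stress_Micro, despite its name, did not stand out for these genes among microglia. It had at least 30 cells in 24-h brain replicate 2 (479 cells) and 72-h brain (213 cells), both of the shorter gene list. Hspa1a stood at 399 and 155 CPM in its cells and, summed over Micro_1, Micro_2 and Micro_3 of the same libraries, at 396 and 122. None of the 9 members with enough UMIs was at least 2-fold higher in both libraries and none was 2-fold lower, where 0.338% and 0.226% of 4433 genes were. The log2 ratios over the other microglia were 0.13 and 1.03 for Hspa1b, 0.016 and 0.36 for Hspa1a and -0.54 and -1.20 for Hspe1. Those of Hsph1 were 0.58 and 1.54, but at 72 h it was the member without enough UMIs. In the same cells Ttr, a transcript of the choroid plexus, stood at 4879 and 14507 CPM, the ribosomal RNA gene Gm42418 at 8027 and 10503, and mitochondrial transcripts at 4.0% and 4.1%. After thinning to 1000 UMIs, 14.3% (17 of 119) and 2.94% (1 of 34) of stress_Micro cells had a UMI of Hspa1a, beside 1.87% and 4.02% of lymphoid cells. Without thinning the shares were 18.8% and 7.98% in stress_Micro and 3.20% and 4.78% in lymphoid cells, at median depths of 792 and 636 and of 1877 and 1180.5 UMIs. At 72 h the thinned share rests on 1 of 34 cells and cannot decide whether stress_Micro was above the lymphoid share. The unthinned share at 72 h was above that of lymphoid cells.

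In mast cells, present with at least 30 cells in dura alone, Dnajb1 was the highest of all clusters of those libraries, at 2979 CPM in control dura (63 cells) and 3573 in 24-h dura (93 cells), 9.64-fold and 7.07-fold the next cluster, Tc. Hspa8 was also highest there, at 5368 and 7557, as was Bag3, at 48.3 and 126. Hspa1a, at 109 and 105, was not, and Macro_2 of the same libraries stood at 240.2 and 372. The mast cells of control dura held 82900 UMIs in all, so that their Bag3 value rests on few counts and its rank is uncertain. Mast cells thus had Dnajb1 far above Hspa1a, while stress_Myeloid had Hspa1a above Dnajb1. No library held at least 30 cells of both, so that cluster and compartment cannot be told apart in this contrast. Dnajb1 far above Hspa1a was not particular to mast cells. In control brain Dnajb1 stood at 1557 and Hspa1a at 171 CPM in Micro_2, and at 1347 and 139 in CAM_1.

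Granulo_2 was at the other end. It was the lowest cluster in each of the 6 libraries that held at least 30 of its cells for Hsph1, Hsp90aa1, Hsp90ab1, Hspa8, Hspe1 and Hspd1. Its Hsph1 was 0 UMIs in both replicates of 24-h brain, in 24-h pia and in control dura. In 24-h brain replicate 1, with 53744 UMIs in all, its Hspd1 was 1 UMI, so that these ranks are uncertain. All members together made up a median of 1097 CPM in Granulo_2 (highest 1275), below the lowest value of every other cluster. For Hspa8 its median was 474 and the next cluster up by median, stress_Micro, had 1027. That median rests on 24-h brain replicate 2 and 72-h brain alone, the libraries where Hspa8 was lowest. Within these, B cells (cluster Bc) stood at 932 and 744 CPM, below stress_Micro at 1113 and 941. Lymphoid clusters were low for Hspa1a and Bag3. Their Hspa1a was 29.1 CPM in the median of 8 libraries and their Bag3 4.04, but T cells had the next highest median of Hsph1 after stress_Myeloid (87.3, against 547), and their Hspe1 (293) and Hspd1 (208) were among the highest.

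Proliferating cells were high for Hsp90aa1 and Hspd1. Their Hsp90aa1 stood at 715 CPM in 72-h brain, 844 in control dura and 525 in 24-h dura, and was the highest of all clusters in the first 2 of these. Their Hspd1 had the highest median after stress_Myeloid, at 229.7, and was the highest of all clusters in 2 of the 3 libraries. Their Hsph1, at a median of 14.1, and Bag3, at a median of 5.73, were low.

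The macrophage clusters of pia stood above those of brain and dura for Hspa1a, and Micro_2 of pia stood above Micro_2 of brain. In the macrophage clusters Hspa1a was at 824 and 986 CPM in control pia and 24-h pia, at 206 and 278 in control dura and 24-h dura, at 145 in control brain, at 127 and 189 in 24-h brain and at 42.6 in 72-h brain. In these sums all pia and dura libraries were above all brain libraries. Micro_2 of control pia (45 cells) and 24-h pia (61 cells) had 4694 and 6736 CPM of Hspa1a, against 171 to 556 in brain, but these cells carried Apoe at 27544 and 19062 and Tmem119 at 195 and 245, where Micro_2 of brain had Tmem119 between 925 and 3434. Microglial names thus held cells with macrophage markers in pia. The reverse was seen in brain, where the macrophage clusters summed to 25077 and 11086 CPM of microglial against 8192 and 3095 of macrophage markers in control brain and 24-h brain replicate 1, and to 1010 to 1776 against 55032 to 67300 in pia and dura. A comparison of macrophage clusters between compartments therefore also compares cell kinds, and it was repeated in Macro_2, where macrophage markers exceeded microglial ones in all 8 libraries. Macro_2 cells were still unlike between compartments. Their macrophage markers summed to 48980 CPM in control brain and 13428 to 17279 in the other brain libraries, against 45725 to 59006 in pia and dura. The part of cell kind in Macro_2 was not tested. In Macro_2 Hspa1a stood at 371 CPM in control brain, 126 and 207 in 24-h brain (replicates 1 and 2) and 75.7 in 72-h brain. It stood at 240.2 and 372 in control dura and 24-h dura, so that dura and brain overlapped. In control pia and 24-h pia it was higher, at 973 and 1156.

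Whether stroke changed the members was tested within a cell class, over 7 libraries with compartment and condition as terms and 72-h brain left out. In T cells edgeR called none of 4712 genes at 24 h against control (84 at an unadjusted p under 0.05, and none by DESeq2, with 39 unadjusted). Log2 fold changes of the 8 members tested ran from -0.25 (Hspa8, SE 0.37) to 0.56 (Hsp90aa1, SE 0.38), all with an edgeR adjusted p of 0.998, and Hspa1b and Bag3 were too low to be tested. In the macrophage clusters edgeR called none of 9486 genes (459 at an unadjusted p under 0.05, and 16 called by DESeq2). The members ran from -0.87 (Dnajb1, SE 0.68) to 1.00 (Hspa1b, SE 1.23), and no member was called in any of the 14 other settings tried. Within the 6 libraries of the longer gene list, 10 genes (0.235%) were called in T cells and 136 (1.44%) in macrophage clusters, again without a member, and 200 (2.58% of 7762) in Macro_2 alone, also without a member. Dnajb1 in T cells had 0.57 (SE 0.15, edgeR adjusted p = 0.066) and Bag3 in macrophage clusters 0.58 (SE 0.19, edgeR adjusted p = 0.11).

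Compartments differed more. Pia and dura against brain gave 346 called genes in the macrophage clusters (3.65% of 9486, with 192 or 2.02% higher and 154 or 1.62% lower), and of the 10 members only Hspa1a was called, higher by 2.08 on the log2 scale (SE 0.33, edgeR adjusted p = 0.029). With scaling by library size alone the split was 135 higher to 479 lower and the median of all genes moved from -0.14 to -0.58. Hspa1a kept its direction in all 14 other settings, at 1.64 to 2.22, and was called in 7 of them. It was not called when any library other than 24-h brain replicate 2 was left out, with edgeR adjusted p between 0.067 and 0.23, and 0 genes in all were called without control brain or without any of the 4 pia and dura libraries. Within the longer gene list 2244 genes (23.8% of 9421) were called, among them Hspa1a at 2.19 (SE 0.22, edgeR adjusted p = 2.9e-04), Hspa1b at 2.51 (SE 0.41, adjusted p = 0.0026) and Hsph1 at 1.15 (SE 0.20, adjusted p = 0.0036). The brain side of the Hspa1b value rests on 2 UMIs in control brain and 5 in 24-h brain replicate 1, so that its size is uncertain.

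In Macro_2 alone, an alternative added after the data had been seen, Hspa1a stood at 1.69 (SE 0.46, edgeR adjusted p = 0.13) over 7 libraries and was not called, where 25 of 8245 genes were (0.303%). Within the 6 libraries of the longer list, 237 of 7762 genes (3.05%) were called and 4 members, all higher in pia and dura. These were Hsph1 at 2.44 (SE 0.64, edgeR adjusted p = 0.013), Hspa1a at 1.75 (SE 0.41, adjusted p = 0.046), Hspa8 at 1.31 (SE 0.20, adjusted p = 2.7e-06) and Dnajb1 at 1.21 (SE 0.27, adjusted p = 0.0023). Hsp90ab1 had 0.81 (SE 0.22, edgeR adjusted p = 0.021, under 2-fold). Brain gave few Macro_2 cells to this fit, 35 in control brain and 56 in 24-h brain replicate 1. Macrophage markers of these cells summed to 48980 and 17279 CPM, against 45725 to 59006 in pia and dura, so cell kind was not held equal. Hsph1 stood at 16.1 CPM of 61923 UMIs in the first and had 2 UMIs in the second, so that the size of its fold change is uncertain. Dnajb1 changed sign with the cells taken, at -0.33 (SE 0.32) for the 4 clusters in the same 6 libraries. For Hspa1a in Macro_2, dura and brain overlapped in CPM and only the pia libraries stood above both.

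**Figure D5:**
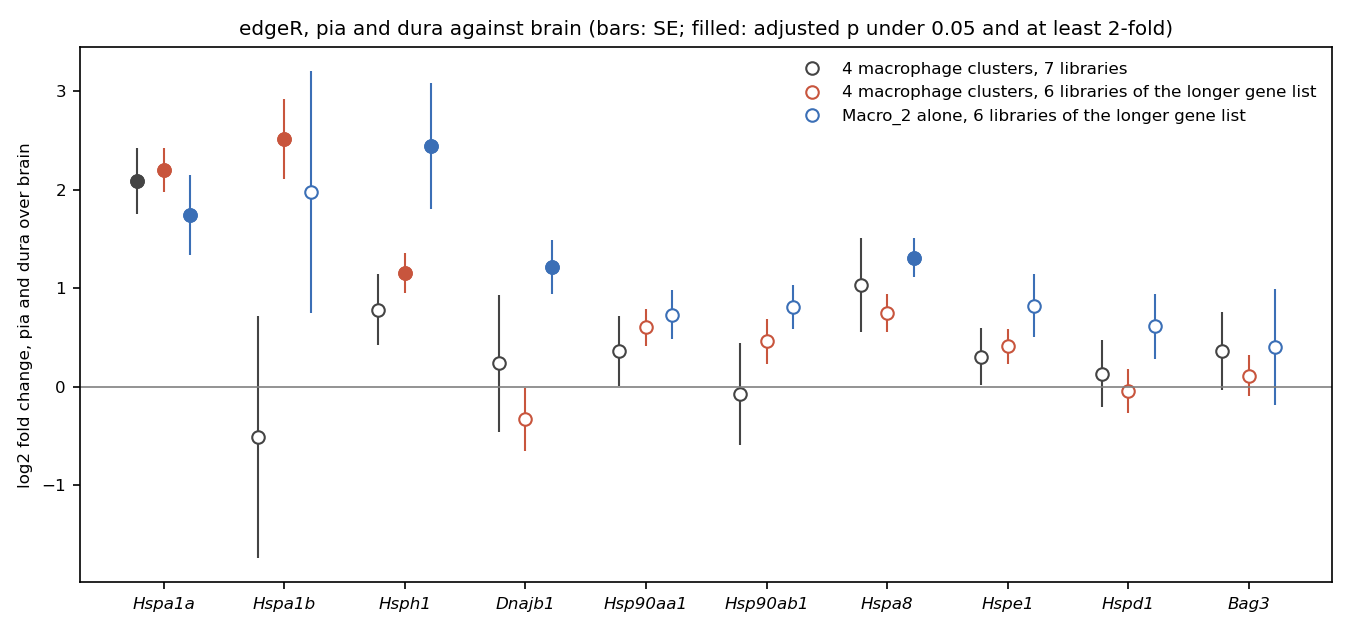
Log2 fold change of pia and dura over brain (edgeR, bars are SE) for each gene in the 4 macrophage clusters over 7 libraries, in the same clusters over the 6 libraries of the longer gene list, and in Macro_2 over those 6; filled points were called. Hspa1a lies between 1.75 and 2.19 in all 3, while Hspa1b, Dnajb1 and Hsp90ab1 are among the genes that change sign between them.

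In T cells, pia and dura against brain gave 22 called genes (0.467% of 4712) and no member, with log2 values from -0.28 (Hsp90ab1, SE 0.50) to 1.05 (Dnajb1, SE 0.41, edgeR adjusted p = 0.28). Within the longer gene list 60 genes (1.41%) were called, again without a member. Among the other lists, the calls, not given without replicate 2, were Fos (-2.56) and Egr1 (-2.77) in T cells and Hspa2, an Hsp70 (2.06), Hspb1, a small heat shock protein (-3.53), Egr1 (-2.37) and Jun (-2.11) in macrophage clusters, each by edgeR over 7 libraries. In macrophage clusters Egr1 and Jun were thus called lower in pia and dura and Hspa1a higher.

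Members did not move as a block across clusters. Within each library, Spearman's rho between the levels of a pair of members over its clusters had a median over 8 libraries of 0.74 for Dnajb1 with Hsp90aa1 and 0.73 for Dnajb1 with Hspa8, and of -0.16 for Hspd1 with Bag3, the lowest of 45 pairs. Hspa1a and Hspa1b had a median of 0.62, with libraries from -0.18 to 0.89. Outside the list, the 5 genes whose levels were most like the summed CPM of Hspa1a, Hspa1b and Dnajb1 over 112 combinations of library and cluster included Jund (Spearman's rho 0.78), Glul (0.77), Eif5 (0.77) and Mob3c (0.75), of 2985 genes compared. Within the 6 libraries of the longer gene list (77 combinations) they included Klf6 (0.75), Jund (0.72), Mob3c (0.72) and Glul (0.69). These points share libraries and depth, and the values are a description.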

How the data were processed

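Sorted leukocytes of 8 libraries were profiled with droplet single-cell RNA-seq. Per the labels the authors made the deposited UMI counts with Cell Ranger 6.0 on mm10, without normalization, and a further deposited table gives the cluster the authors named for each cell (Seurat, SCTransform, Harmony, doublets removed with scDblFinder). Genes were matched by Ensembl identifier. UMIs were summed per library and cluster and scaled to 1e+06, for clusters of at least 30 cells. Ratios of 2 sums had 0.5 counts added and needed 50 UMIs in both together, and intervals are exact at 95% and cover counting error only. Sums over T cells and macrophage clusters were compared with edgeR 4.0.16 (filterByExpr, TMM, robust quasi-likelihood test, Benjamini-Hochberg over all genes, two-sided) in R 4.3.3, with DESeq2 1.42.0 as the other tool. The authors' file also holds UMAP scores (coordinates), deposited with the clusters and not read here. The edgeR step was tested on simulated data. Other steps used Python 3.11.15, numpy 2.4.6, pandas 2.3.3, scipy 1.17.1 and matplotlib 3.10.9. Positions and sequences came from GRCm38 and RefSeq tables.

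The named genes were the 10 members in every comparison, and genes of 10 pathway lists that passed the call rule. Members and lists were chosen with earlier results of these data known. Depth per library is given with the results. Alternatives were scaling, DESeq2, no filter, thinned cells, 72-h brain as a term, each library left out and, added after the data had been seen, the gene list and Macro_2 fits. Barcodes without a cluster entered no comparison. Values of some genes are not reported here.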

Additional observations from a re-analysis of the deposited data

Results flagged for a closer look

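In 4 cases the log2 ratio of 24 h over control, with 0.5 counts added, had one sign in both brain replicates and the opposite sign in both pia and dura. In the case of Bag3 the added counts alone set the sign in pia and dura. The difference was not tested in any of them. In T cells, Hsph1 had a mean log2 ratio of -1.30 in brain and 0.56 in pia and dura, a difference of -1.86 that rests on 2 to 21 UMIs in each brain library. Hspa8 had -1.04 and 0.15, a difference of -1.19, and its brain mean joins -0.65 in replicate 1 and -1.42 in replicate 2. Bag3 in T cells had 0.91 and -0.46, a difference of 1.36, but rests on 0 to 4 UMIs in each brain library, 1 and 2 in control pia and 24-h pia, where its CPM went from 5.84 to 6.22, and 0 in both dura libraries, so that no opposite direction was measured. Control brain and 24-h brain replicate 1 gave 31 and 33 T cells to these values. In the macrophage clusters Dnajb1 had -2.42 in brain and 0.15 in pia and dura, a difference of -2.57. Its brain mean joins -1.37 in replicate 1 and -3.47 in replicate 2. Replicate 2 has the shorter gene list, with which Dnajb1 and Hspa8 were lower, while the control has the longer one. The microglial marker sum of these brain cells fell from 25077 CPM in control to 11086 and 2721 at 24 h, and the part this had in the difference was not tested.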

How the results depend on the processing

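No paired analysis was possible because the labels number only the 2 libraries of 24-h brain, and no other group shares replicate numbers with them. Counts of called genes moved most. For T cells at 24 h, no filter on low counts gave 1, and leaving out each library gave 0 to 10. For T cells of pia and dura against brain (22), library size scaling gave 34, DESeq2 39, no filter 153, thinned cells 6 and 72-h brain as a term 41, and leaving out libraries gave 0 (without control brain) to 69 (without 24-h brain replicate 1). For macrophage clusters at 24 h (0), DESeq2 gave 16, no filter 73, Macro_2 within the longer gene list 200, and leaving out libraries 0 to 136. For macrophage clusters of pia and dura against brain (346), library size scaling gave 614, DESeq2 1005, no filter 1262, Macro_2 alone 25, and leaving out libraries 0 to 2244. For the gene list, DESeq2 gave 537 and thinned cells 459 in T cells (904), leaving out libraries gave 377 (without 24-h brain replicate 1) to 978 there and 2146 (without 72-h brain) to 3378 in macrophage clusters (3435). The members at least 2-fold higher in stress_Myeloid (9) became 5 against macrophage clusters, 2 with a minimum of 10 cells and 5 with thinned cells, and in stress_Micro (0) leaving out 24-h brain replicate 2 gave 1.

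Signs that turned were all of members that were not called by edgeR over 7 libraries, or over 8 for the gene list. Leaving out libraries in turn gave -0.43 to 0.14 for Hspa8 in T cells at 24 h and -0.64 to 0.53 for Hsp90ab1 in T cells of pia and dura against brain. In macrophage clusters it gave -1.28 to 0.094 for Dnajb1 at 24 h, and in pia and dura against brain -1.36 to 2.51 for Hspa1b, -0.33 to 1.22 for Dnajb1 and -0.57 to 0.46 for Hsp90ab1. For the gene list it gave -1.63 to 0.28 for Hspa1a. Without a filter Hsp90ab1 stood at 0.059 in T cells and 0.012 in macrophage clusters of pia and dura, with library size scaling Dnajb1 at -0.18 and Hsp90aa1 at -0.090 there, and in Macro_2 within the longer list Hspa1b at 1.98 and Hsp90ab1 at 0.81. The cause was not tested.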

Other observations

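Barcodes that the authors left without a cluster also carried these genes. Their Hspa8 stood at 3244 CPM in control brain, 3594 and 1152 in 24-h brain (replicates 1 and 2), 1179.8 in 72-h brain, 4856 in control pia, 5271 in 24-h pia, 3064 in control dura and 3351 in 24-h dura. The libraries of the shorter gene list were again the lowest. Hsp90aa1 in dura was higher in these barcodes, at 673 and 698 CPM in control dura and 24-h dura, than in the annotated cells of the same libraries, at 329 and 347.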
